A study of Mus musculus with 20 samples.

Results

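The 9 genes described here encode the AMPA-type glutamate receptor and its nearest partners: the pore-forming subunits Gria1, Gria2, Gria3 and Gria4, the transmembrane AMPA receptor regulatory proteins (TARPs) Cacng2, Cacng3 and Cacng8, and the cornichons Cnih2 and Cnih3. The rule that chose them names the genes and their families and uses no measured value, and all 9 were present among the 19463 genes of the expression table. RNA was taken from whole brains of male C57BL/6J mice that were wild type (WT) or knockout (KO) for Katnal2, a gene related to microtubule-severing katanins, at 3 weeks (P21) or 10 weeks (P70) of age. The 4 groups, P21 WT, P21 KO, P70 WT and P70 KO, held 5 mice each, 20 mice in all. The KO allele came from a targeted stem cell line, from which Flp recombinase and then a cell-permeable Cre protein given to embryos left a homozygous, frame-shifting deletion of exon 3, and the labels name no other agent or treatment for any group. The comparisons ask how these transcripts differed between the 2 ages within a genotype, between the genotypes within an age, and whether age acted differently in the 2 genotypes.

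AMPA receptors carry most fast excitatory transmission in the brain. Each is a tetramer of pore subunits, which TARPs and cornichons accompany to the cell surface and to the synapse, where they also slow channel closing. The Gria2 subunit sets calcium entry: its pore codon is edited in RNA, which exchanges a glutamine for an arginine and makes channels that contain it nearly impermeable to calcium. In the developing rodent forebrain the share of Gria2 is known to grow after birth, Cacng2 is the main TARP of cerebellar granule cells, Cacng8 is enriched in the hippocampus and Cacng3 in the cortex.

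The coding stretch around that pore codon is shown because it is the place at which the 4 subunits differ in calcium entry and because it shows how alike their transcripts are, which matters for assigning reads to each gene. The sequences were read from the principal transcripts of GENCODE M21 on GRCm38, 60 bases each, 5′ to 3′, with the pore codon in capitals:
Gria1: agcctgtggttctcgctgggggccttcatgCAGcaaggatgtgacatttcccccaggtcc
Gria2: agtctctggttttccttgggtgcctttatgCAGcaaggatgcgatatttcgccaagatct
Gria3: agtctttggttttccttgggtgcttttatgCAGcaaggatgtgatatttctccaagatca
Gria4: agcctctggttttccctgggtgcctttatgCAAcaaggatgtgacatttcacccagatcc
The codon is CAG in Gria1, Gria2 and Gria3 and CAA in Gria4, and all 4 encode glutamine in the genome. It lies at chr11:57243094-57243096 on the plus strand in Gria1, at chr3:80706911-80706913 on the minus strand in Gria2, at chrX:41610265-41610267 on the plus strand in Gria3 and at chr9:4464137-4464139 on the minus strand in Gria4. Each stretch is coding and crosses an exon junction, between exons 11 and 12 of 16 in Gria1, Gria2 and Gria3 and between exons 12 and 13 of 17 in Gria4. Over these bases Gria2 and Gria3 were identical at 55 of 60 positions, the most of any pair, and Gria1 was identical to Gria2 and to Gria3 at 47 of 60. The deposited values are sums per gene, so the edited share of Gria2 and the splice forms of the subunits were not measured here.

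Values are normalized read counts per gene whose sums over the table lay between 27310523 and 28423042 per mouse, so the sequencing depth of each library is unknown. The tissue label was checked against cell type markers. The 4 general neuronal genes summed to between 101561 and 118611 in every mouse. The liver gene Apoa2 lay between 4.15 and 24.2, and the skeletal muscle genes Acta1 and Myh4 summed to between 108 and 220. The 4 forebrain markers summed to at least 3870 and the 6 cerebellar markers to at least 17428 in every mouse. These sums cannot show that the whole brain was taken. Katnal2 itself lay between 78.1 and 96.0 in the P21 KO mice and between 99.3 and 115 in the P21 WT mice, groups that did not overlap, but between 95.1 and 126 in the P70 KO mice and 101 and 142 in the P70 WT mice. The share of all genes whose genotypes did not overlap at P21 is not given here, so the separation alone does not verify the labels. Only exon 3 is deleted while the count covers the whole gene, and the difference passed the limma test at neither age (adjusted p = 1.0). In the P70 mice numbered 5, the KO and the WT mouse alike, the deviation of gene levels from the mean over all mice correlated with transcript GC content across 17623 genes (r = 0.533 in KO, 0.474 in WT), against −0.195 to 0.0828 in the other 18 libraries. Genes are not independent replicates, and these r values are descriptions. The age and genotype comparisons of the 9 genes, and the calls among markers and partners, are therefore given with and without those 2 mice, a choice made after the data were seen.

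The P70 mice numbered 5 lay below their groups in the pore subunits, as they did in many other genes. Of 17637 genes, 5.86% in the WT mouse and 3.88% in the KO mouse deviated lower than Gria2. The shares were 13.38% and 12.82% for Gria4, 22.93% and 24.68% for Gria3, and 36.36% and 36.08% for Gria1. For Cnih2, 90.75% and 81.54% of genes deviated lower. Gria2 was 9770 in the WT mouse numbered 5, against 14545 to 17320 in the other 4 P70 WT mice. It was 6963 in the KO mouse numbered 5, against 15542 to 17776 in the other 4 P70 KO mice, a ratio of 0.432 to their mean. Both mice were thus far below their groups for this subunit, and Gria4 did likewise, with 3227 against 4518 to 4815 in WT and 2905 against 4491 to 4859 in KO. Cnih2 went the other way, with 5308 against 3136 to 4108 in WT and 5155 against 3567 to 4093 in KO. Over the 9 genes the deviation of mouse 5 from its group correlated with the GC content of the principal transcript, which runs from 36.8% in Gria2 through 43.0% in Gria3, 44.0% in Gria4 and 48.6% in Gria1 to 62.3% in Cnih2 and 65.1% in Cacng8 (r = 0.891 in WT and 0.837 in KO, 9 genes of 1 library each, given as a description). Cacng8, highest in GC content, deviated by only 0.13 in WT and 0.0 in KO on the log2 scale. Cacng2, at 51.2%, deviated by 0.16 and 0.14. The spread of Gria2 showed the effect of these mice on the groups: its SD was 9.6% of the mean in P21 WT and 14.5% in P21 KO, against 21.0% in P70 WT and 29.4% in P70 KO. The part of GC content in the levels of those 2 libraries was not tested.

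**Figure D1:**
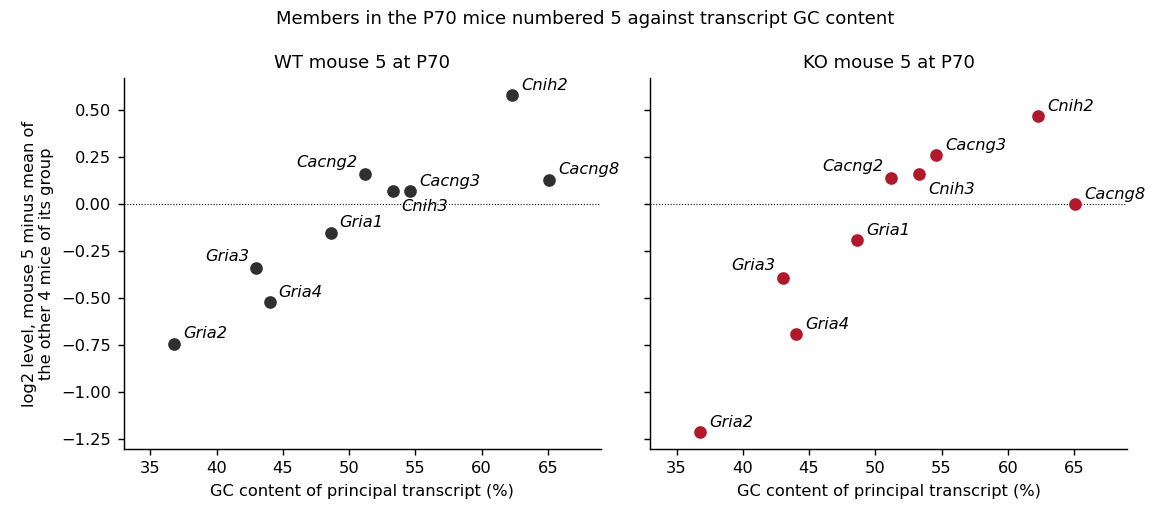
Each point is 1 of the 9 genes in the P70 WT (left) or P70 KO (right) mouse numbered 5. The x axis is the GC content of the principal transcript in percent and the y axis the log2 level minus the mean log2 level of the other 4 mice of the group. Gria2, with the lowest GC content, was lowest in both mice at −0.74 and −1.21, and Cnih2 was highest at 0.58 and 0.47.

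Compared per kilobase of principal transcript, which is the scale on which levels of different genes can be set side by side, the 9 transcripts had the same order of group means in all 4 groups. Cnih2, the cornichon known to set the gating of hippocampal AMPA receptors, stood first, at 2970 ± 321 normalized counts per kb in P21 WT mice (SD, n = 5). Gria1 followed at 1938 ± 83.2, Gria2 at 1574 ± 151, Gria3 at 1165 ± 72.5 and Gria4 at 841 ± 33.9 in the same mice. The ranges of neighbours among the pore subunits did not overlap in P21 WT mice. The TARPs and the second cornichon came last: Cacng3 at 771 ± 48.2, Cacng8 at 565 ± 51.5, Cnih3 at 553 ± 28.3 and Cacng2 at 476 ± 17.1. Among these, Cacng3 overlapped Gria4 above it and Cacng8 overlapped Cnih3, so neither of those neighbours differed beyond its spread. In P70 KO mice, the group with the lowest Gria2 value, the means per kb were 2990 ± 501 for Cnih2, 2137 ± 125 for Gria1, 1379 ± 406 for Gria2, 1113 ± 138 for Gria3 and 810 ± 152 for Gria4. There the range of Gria2, from 671 to 1714, overlapped that of Gria3. At P70 the ranges of Cnih3 and Cacng2 overlapped in both genotypes. The order below Gria1 rests on the transcript length used. With the union of all exons in place of the principal transcript, Gria3 was at 614 ± 38.2 per kb in P21 WT mice, below Cacng3 at 771 ± 48.2 and Gria4 at 714 ± 28.8. With the mean length of the coding transcripts, Gria4 was at 982 ± 39.6, below Cnih3 at 1013 ± 51.8. By group means, Cnih2 and Gria1 stood first and second in all 4 groups with each of these lengths. With the mean coding length, however, their ranges overlapped at P70. In WT they were 2335 to 3953 for Cnih2 and 2572 to 2909 for Gria1, and in KO 2656 to 3838 and 2503 to 2906. The highest Cnih2 value at P70 was that of mouse 5 in both genotypes.

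**Figure D2:**
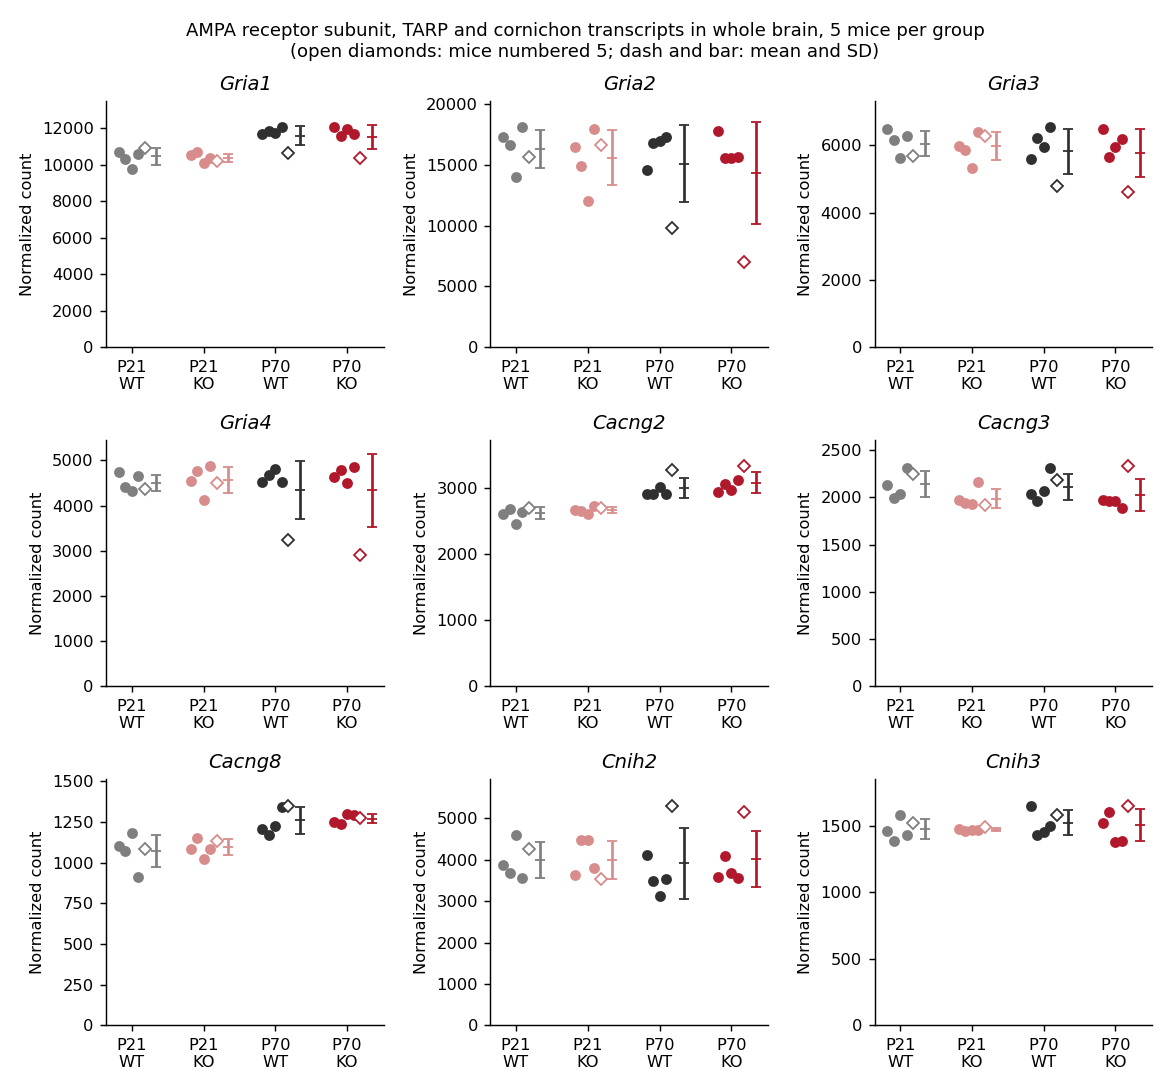
Each panel shows 1 gene, with 5 mice per group, and the y axis gives its normalized read count from 0. Filled circles are the mice numbered 1 to 4, open diamonds the mice numbered 5, and the dash and bar beside them the mean and SD. Gria1, Cacng2 and Cacng8 have higher means at P70 than at P21 in both genotypes, and the open diamonds at P70 lie below their groups for Gria1 to Gria4 and above them for Cnih2.

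Between P21 and P70 the TARPs Cacng2 and Cacng8 rose in KO mice, by 15.4% and 16.1%. None of the 9 genes passed the test in WT mice, where these 2 TARPs were higher by 14.6% and 17.7%. Gria1 was higher by 0.15 on the log2 scale in both genotypes without passing the test, and was called in fits that left out the P70 mice numbered 5 or subtracted a length and GC trend. The pore subunits Gria2, Gria3 and Gria4 and both cornichons passed the test in neither genotype. By limma with Benjamini-Hochberg adjustment over all genes, 2 of 9 genes were higher in KO mice, where 3.78% of 17641 genes were called higher and 4.53% lower. In WT mice 0 of 9 were called, where 4.62% of 17630 genes were called higher and 4.7% lower, and 3 of the 9 had an unadjusted p under 0.05 in each genotype, against 24.5% of all genes in WT and 22.7% in KO. The median log2 change over the 9 genes was −0.02 in WT and 0.03 in KO, against 0.001 and −0.01 over all genes tested. In bulk tissue, fewer cells of a type and less RNA per cell cannot be told apart, and the labels name no processing batch, so age and the time of processing cannot be told apart either. The WT and KO comparisons of age share no mice with each other, but each shares its mice with the genotype comparisons below.

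Cacng2, or stargazin, the TARP whose loss causes ataxia and absence seizures in the stargazer mouse, was 2615, 2688, 2465, 2646 and 2696 in the P21 WT mice and 2917, 2914, 3014, 2920 and 3275 in the P70 WT mice. It was 2665, 2652, 2617, 2727 and 2700 in the P21 KO mice and 2947, 3071, 2969, 3119 and 3333 in the P70 KO mice. All P70 mice were above all P21 mice in each genotype, as was the case for 5.2% of all genes in WT and 5.4% in KO, and the highest value at P70 was that of mouse 5 in both. The log2 change was 0.20 (SE 0.059, adjusted p = 0.0532) in WT and 0.21 (SE 0.056, adjusted p = 0.0386) in KO by limma, and the two-sided exact permutation test of the 5 against 5 mice gave p = 0.00794 in each, the smallest value it allows. Without the P70 mice numbered 5, the log2 change was 0.17 in WT (SE 0.044, adjusted p = 0.0228) and 0.18 in KO (SE 0.039, adjusted p = 0.00591), and the groups again did not overlap, as was the case, with P70 the higher, for 9.4% and 10.5% of all genes. After a length and GC trend was subtracted with all mice kept, it was 0.20 in WT (adjusted p = 0.0216) and 0.25 in KO (adjusted p = 0.00847) by limma. Those fits called 8.64% and 9.46% of all genes higher.

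Cacng8, the TARP enriched in hippocampal synapses, was 1104, 1074, 1182, 915 and 1087 in the P21 WT mice and 1205, 1172, 1226, 1345 and 1351 in the P70 WT mice. It was 1082, 1152, 1026, 1087 and 1133 in the P21 KO mice and 1251, 1236, 1301, 1293 and 1274 in the P70 KO mice. The KO groups did not overlap, whereas in WT the lowest P70 mouse lay just below the highest P21 mouse. The log2 change was 0.235 (SE 0.08, adjusted p = 0.0848) in WT and 0.215 (SE 0.059, adjusted p = 0.0433) in KO, with exact permutation p = 0.0159 and 0.00794. When a trend with transcript length and GC content was subtracted in each mouse, the log2 change was 0.13 (adjusted p = 0.265) in WT and 0.12 (adjusted p = 0.414) in KO, so the call in KO was lost and the change was 1.5 times or more smaller. Without the P70 mice numbered 5, the log2 change of Cacng8 was 0.21 in both genotypes. It was called in KO (adjusted p = 0.00903) but not in WT (adjusted p = 0.0717) by limma. Those fits called 8.89% of all genes higher in WT and 10.6% in KO. Cacng3, the TARP most abundant per kb, differed by −0.02 (SE 0.068) in WT and 0.03 (SE 0.071) in KO on the log2 scale and overlapped between the ages in both genotypes.

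Gria1, the subunit that enters hippocampal synapses during potentiation, was 10693, 10347, 9763, 10571 and 10952 in the P21 WT mice and 11683, 11855, 11749, 12068 and 10671 in the P70 WT mice. It was 10517, 10692, 10120, 10349 and 10195 in the P21 KO mice and 12055, 11606, 11975, 11668 and 10382 in the P70 KO mice. In each genotype 4 of the 5 P70 mice lay above every P21 mouse, and the exception was mouse 5. With all mice the log2 difference did not pass the test, at 0.15 (SE 0.057) in both WT (adjusted p = 0.125) and KO (adjusted p = 0.131), with exact permutation p = 0.0238 in each. Without the P70 mice numbered 5 the groups did not overlap and Gria1 was called higher, by 13.2% in WT (adjusted p = 0.0144) and 14.0% in KO (adjusted p = 0.00265), in fits that called 8.89% and 10.6% of all genes higher. The same held after the length and GC trend was subtracted with all mice kept, at log2 0.17 in WT (adjusted p = 0.00771) and 0.21 in KO (adjusted p = 0.00302), where 8.64% and 9.46% of all genes were called higher.

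Gria2, the subunit that limits calcium entry, was 17253, 16610, 14029, 18100 and 15628 in the P21 WT mice and 14545, 16796, 16966, 17320 and 9770 in the P70 WT mice. It was 16463, 14940, 12019, 17929 and 16643 in the P21 KO mice and 17776, 15542, 15557, 15646 and 6963 in the P70 KO mice. The ages overlapped in both genotypes, and the lowest P21 value in each was that of mouse 3. The log2 difference was −0.14 (95% confidence interval −0.44 to 0.16) in WT and −0.18 (−0.66 to 0.29) in KO, and without the P70 mice numbered 5 its sign turned, to 0.01 (−0.15 to 0.17) and 0.06 (−0.15 to 0.27). After the length and GC trend was subtracted it was −0.12 in WT (adjusted p = 0.0788) and −0.14 in KO, where it was called lower (adjusted p = 0.0229, against 7.79% of all genes called lower). With replicate number added to that fit as a block, the estimate in KO was again −0.14 but was not called (adjusted p = 0.0621 by limma). The direction of the Gria2 difference between the ages therefore depended on how the libraries numbered 5 were treated. The differences of Gria3 and Gria4 also turned from negative to positive without those 2 mice, from −0.06 to 0.01 for Gria3 and from −0.06 to 0.04 for Gria4 in WT, and from −0.05 to 0.03 and from −0.095 to 0.04 in KO, none of them past the test.

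The cornichons had overlapping ages in both genotypes. Cnih2 was 3554 to 4596 in P21 WT mice, with a median of 3870, and 3136 to 5308 in P70 WT mice, with a median of 3535. In KO mice it was 3542 to 4483 at P21, median 3804, and 3567 to 5155 at P70, median 3687. Its log2 difference was −0.05 (−0.31 to 0.22) in WT and 0.004 (−0.24 to 0.24) in KO, and −0.16 (−0.35 to 0.03) and −0.09 (−0.26 to 0.08) without the P70 mice numbered 5. Cnih3, a cornichon with the same role in the hippocampus, was 1388 to 1652 over all WT mice and 1377 to 1646 over all KO mice, and differed between the ages by 0.04 (−0.10 to 0.19) and 0.03 (−0.12 to 0.18).

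**Figure D3:**
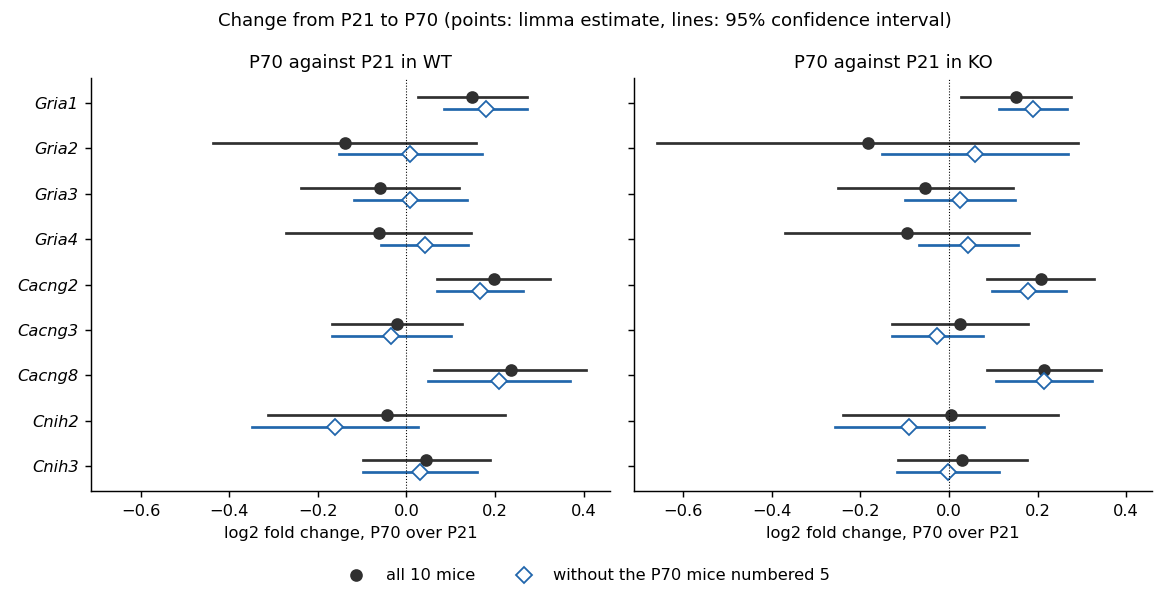
Change of each gene from P21 to P70 in WT (left) and KO (right) mice. The x axis is the log2 fold change, filled circles use all 10 mice of the genotype, open diamonds leave out the P70 mouse numbered 5, and lines are 95% confidence intervals. The intervals of Gria1, Cacng2 and Cacng8 lie above 0 in both genotypes and both fits, and that of Gria2 with all mice spans −0.44 to 0.16 in WT and −0.66 to 0.29 in KO.

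These calls had little margin. Leaving out each of the 10 mice of a comparison in turn, Cacng2 in KO was called in 2 of 10 fits, those without P70 KO mouse 1 and without P70 KO mouse 5, and its adjusted p ranged from 0.00591 to 0.0974. Cacng8 in KO was called in 1 of 10, that without P70 KO mouse 5, with adjusted p up to 0.108. In WT, Cacng2 and Gria1 were each called in 1 of 10, that without P70 WT mouse 5. The log2 change stayed between 0.17 and 0.22 for Cacng2, between 0.18 and 0.27 for Cacng8 and between 0.12 and 0.19 for Gria1 over all of these fits in both genotypes.

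Cell type markers moved with age in the same fits. The oligodendrocyte markers Mbp, Mog, Mobp, Mag and Cnp all fell in both genotypes, with log2 changes from −0.83 (Mobp) to −1.44 (Mog) in WT and from −1.13 to −1.64 for the same genes in KO, and the summed level of these 5 ran from 239051 to 370545 in the P21 mice and from 98922 to 146808 in the P70 mice. Snap25, a presynaptic gene of all neurons, rose by 19.1% in WT and 22.2% in KO, and was the only 1 of 4 general neuronal markers called in either direction in these fits. Of the 4 markers of immature neurons, Sox4 and Dcx fell in WT and Sox4 and Neurod1 in KO. Of the 7 excitatory neuron markers Slc17a7 fell by 12.0% in WT and Neurod2 rose by 23.1% in KO, and 0 of 6 inhibitory markers passed the test. Of the 6 cerebellar markers, Gdf10 of Bergmann glia fell in WT, and Gdf10, Cbln3 and Calb1 fell in KO. With all mice, the 4 hippocampal, 4 forebrain, 6 astrocyte, 4 microglia and 4 endothelial markers gave no call in either genotype. Of the 4 markers of oligodendrocyte precursors 3 fell in WT and 2 in KO, and of the 4 of choroid plexus Kl rose in WT. Without the P70 mice numbered 5 more markers were called. The same 5 oligodendrocyte genes fell in both genotypes, and Snap25 rose while Tubb3, a neuronal tubulin, fell by 15.4% in WT and fell by 17.3% in KO. Of the excitatory markers, 1 rose and 3 fell in WT and 4 rose and 2 fell in KO, and Gad1, which makes GABA in inhibitory neurons, rose in both. Slc1a2, a glutamate transporter of astrocytes, rose by 20.6% in WT and 21.4% in KO. Of the endothelial markers, 2 fell in WT, and 1 rose and 1 fell in KO, of the 3 hindbrain and spinal cord markers tested 2 fell in KO, and the hippocampal and microglial markers again gave no call. The part of these shifts in cell type markers in the TARP results was not tested.

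The relative composition of the receptor pool was described as each pore subunit's share of the summed Gria level per kb. In P21 mice Gria1 made up 35.2% ± 1.36 in WT and 35.5% ± 2.21 in KO (SD, n = 5), and in P70 mice 39.1% ± 3.15 and 39.8% ± 4.50. Gria2 made up 28.5% ± 1.31 and 27.6% ± 2.37 at P21, and 26.0% ± 2.85 and 24.8% ± 4.62 at P70. With this length, that of the principal transcript, Gria3 lay between 19.4% and 22.1% and Gria4 between 13.5% and 16.3% in every mouse. The shares at P70 were pulled apart by the mice numbered 5, in which Gria1 reached 44.5% in WT and 47.8% in KO and Gria2 only 21.2% and 16.7%. Without them Gria1 was 37.8% in both genotypes, and Gria2 was 27.2% in WT and 26.8% in KO. The summed level of the 3 TARPs per 100 units of summed pore subunits was 32.9 ± 2.0 in P21 WT, 32.8 ± 1.499 in P21 KO, 36.1 ± 6.27 in P70 WT and 37.1 ± 8.71 in P70 KO. Without the mice numbered 5 the P70 ratios were 33.4 and 33.2, within the spread of the P21 mice. Within the TARPs, Cacng3 held the largest share in all 4 groups, 42.5% ± 2.39 in P21 WT, 40.2% ± 1.31 in P21 KO, 38.6% ± 0.962 in P70 WT and 37.2% ± 1.58 in P70 KO. These are shares of transcript, and no test was made of them. They rest on the transcript length used. In P21 WT mice Gria3 was at 1165 per kb of principal transcript, 614 with exon union length and 2149 with mean coding transcript length. Gria1 was at 1938, 1732 and 2523 with the same lengths.

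**Figure D4:**
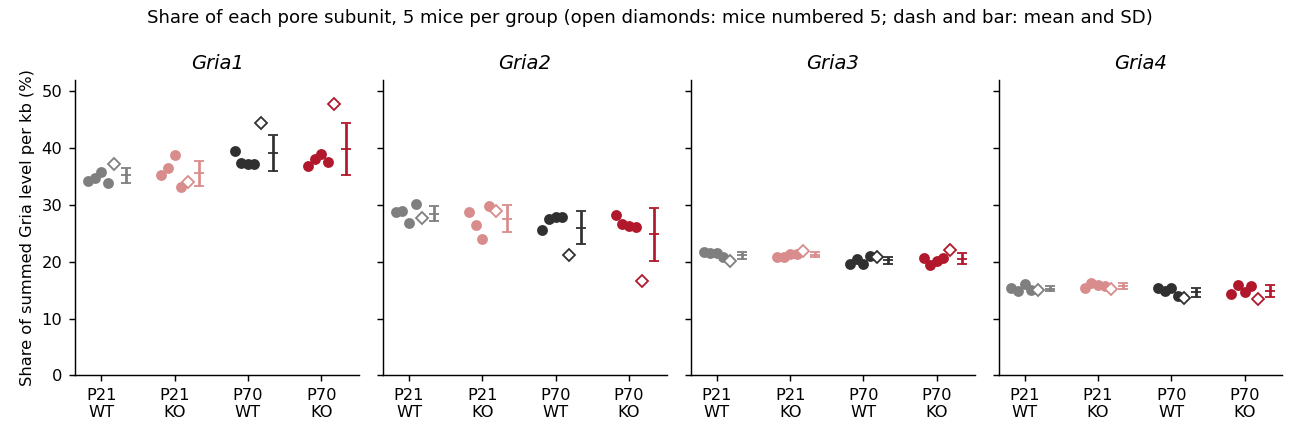
Share of each pore subunit in the summed Gria level per kb, in percent on the y axis from 0, for 5 mice per group. Filled circles are mice 1 to 4, open diamonds mice 5, and the dash and bar the mean and SD. At P70 the open diamonds are highest for Gria1, at 44.5% and 47.8%, and lowest for Gria2, at 21.2% and 16.7%.

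Between the genotypes no difference was called at either age. At P21 0 of 9 genes passed the test in KO against WT mice, with 0.0% of 17610 genes called in either direction by limma, and 0 of the 9 had an unadjusted p under 0.05, against 2.44% of all genes. At P70 it was again 0 of 9, with 0.0% of 17613 genes called, and 0 of the 9 had an unadjusted p under 0.05, against 1.13% of all genes. These p values do not show that the genotypes were alike, and the intervals set the size of difference that these mice leave possible. At P21 the 95% confidence intervals of the log2 difference were −0.10 to 0.08 for Gria1, −0.29 to 0.14 for Gria2, −0.14 to 0.11 for Gria3 and −0.09 to 0.12 for Gria4. They were −0.06 to 0.11 for Cacng2, −0.11 to 0.18 for Cacng8, −0.19 to 0.18 for Cnih2 and −0.10 to 0.10 for Cnih3.

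The gene farthest from 0 at P21 was Cacng3, which was 1970, 1939, 1930, 2161 and 1923 in the KO mice. In the WT mice it was 2126, 1992, 2037, 2308 and 2244. Mice of the 2 genotypes were compared without pairing by number, and the groups overlapped. Its log2 difference was −0.11 (−0.22 to 0.01; unadjusted p = 0.0621, adjusted p = 1.0 by limma, exact permutation p = 0.0714). At P70 it was −0.06 (−0.23 to 0.11), and −0.10 (−0.22 to 0.02) without the mice numbered 5.

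At P70 the intervals were wide for the genes that the mice numbered 5 moved most. That of Gria2 was −0.65 to 0.41 with all mice and −0.16 to 0.11 without those 2, and that of Gria4 went from −0.35 to 0.32 to −0.07 to 0.11. For Cnih2 it was −0.27 to 0.36 with all mice and −0.10 to 0.23 without. For Gria1 it was −0.15 to 0.13 with all mice and −0.08 to 0.07 without. Gria3 had −0.25 to 0.22 with all mice and −0.13 to 0.12 without, and Cacng2 −0.10 to 0.18 and −0.05 to 0.13. Cacng8 had −0.13 to 0.16 and −0.08 to 0.16, and Cnih3 −0.19 to 0.15 and −0.18 to 0.11. Without the 2 mice, 0 of 9 genes passed the test, and 0.00567% of 17650 genes, a single gene that is not a member, was called higher.

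**Figure D5:**
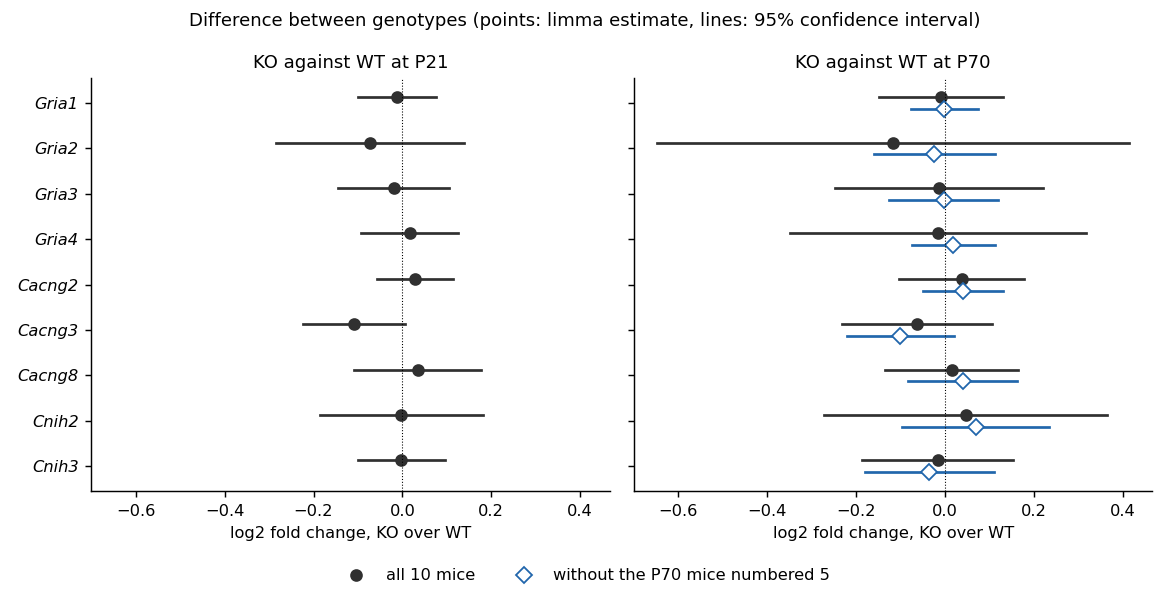
Difference between KO and WT mice at P21 (left) and P70 (right) for each gene. The x axis is the log2 fold change of KO over WT, filled circles use all 10 mice, open diamonds leave out both P70 mice numbered 5, and lines are 95% confidence intervals. All intervals include 0, and the interval of Gria2 at P70 narrows from between −0.65 and 0.41 to between −0.16 and 0.11 without those mice.

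The effect of age was compared between the genotypes by the interaction term of a fit to all 20 mice. It was called for 0 of 9 genes, with 0.0% of 17637 genes called, and 0 of the 9 had an unadjusted p under 0.05 against 1.68% of all genes. For Cacng2 the change in KO exceeded that in WT by 0.01 (−0.14 to 0.16) on the log2 scale, and for Cacng8 it differed by −0.02 (−0.21 to 0.17). The calls in KO and their absence in WT are thus not shown to differ between the genotypes. The interaction was −0.04 (−0.63 to 0.54) for Gria2 with all mice and 0.05 (−0.23 to 0.33) without the P70 mice numbered 5.

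Other genes of the AMPA receptor pathway were followed as a list of 41, by role, and all were tested. Between P21 and P70, 4 rose and 1 fell in WT mice, and 3 rose and none fell in KO mice, with a median log2 change over the list of 0.02 and 0.002. Over all genes, 4.62% were called higher and 4.7% lower in WT and 3.78% and 4.53% in KO. Without the P70 mice numbered 5, 5 of the 41 rose and 3 fell in WT, where 8.89% of all genes were called higher and 8.11% lower, and 7 rose and 3 fell in KO, where 10.6% were called higher and 10.7% lower. Among proteins that cluster receptors at synapses, Nptx1, a secreted pentraxin, rose from 8997 ± 637 to 12636 ± 904 in WT (log2 0.49, adjusted p = 0.00076) and from 9430 ± 502 to 12562 ± 587 in KO (log2 0.41, adjusted p = 0.00112). It was the only 1 of 9 in that role to be called in these fits, and Lrrtm4, a postsynaptic adhesion protein, differed by −0.27 in WT (adjusted p = 0.0518) and −0.15 in KO (adjusted p = 0.27). Without the P70 mice numbered 5 Nptx1 rose again in both, Lrrtm4 fell by 13.5% in WT (adjusted p = 0.028), Nptx2 rose in KO and Olfm2 fell in both.

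Among the 12 trafficking and anchoring proteins, Arc and Grasp rose in both genotypes. Arc, an immediate early gene that promotes AMPA receptor endocytosis, went from 3378 ± 1582 to 7555 ± 1698 in WT (log2 1.261, SE 0.272, adjusted p = 0.0112) and from 3148 ± 576 to 7659 ± 920 in KO (log2 1.29, SE 0.115, adjusted p = 6.12e-05). Its P21 WT values ran from 1872 to 5471, the latter above the lowest P70 WT value of 5330. Grasp, a postsynaptic scaffold protein, rose by 37.0% in WT (adjusted p = 0.00916) and 45.2% in KO (adjusted p = 0.00654). Both genes also rose in both genotypes without the P70 mice numbered 5, Arc by 1.24 and 1.22 on the log2 scale and Grasp by 31.1% and 36.7%.

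Of the 5 assembly and degradation factors, Abhd6, a hydrolase that restrains surface delivery of AMPA receptors, rose in WT by 18.5% (adjusted p = 0.0453) and was higher in KO by 11.2% without passing the test (adjusted p = 0.203). Frrs1l, which assists receptor assembly in the endoplasmic reticulum, was 7660 ± 507 at P21 and 9585 ± 1957 at P70 in WT, and 7684 ± 703 and 9312 ± 2392 in KO, with adjusted p = 0.191 and 0.502. Without the P70 mice numbered 5 Frrs1l rose, by 36.7% in WT (adjusted p = 0.000133) and 35.4% in KO (adjusted p = 0.000541), and Abhd6 was called in WT (adjusted p = 0.0288) but not in KO (adjusted p = 0.102). Of the 3 RNA editing enzymes, Adarb2, which binds RNA but is not known to edit, fell by 24.6% in WT (adjusted p = 0.00938) and was lower by 20.6% in KO (adjusted p = 0.0512), and it fell in both without the P70 mice numbered 5 (adjusted p = 0.00653 and 0.0196). Adar differed by 0.11 and 0.09 on the log2 scale (adjusted p = 0.392 and 0.378), and Adarb1, the editor of the Gria2 pore codon, was not called in either genotype.

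The remaining TARPs, cornichons and other auxiliary proteins gave no call with age, with or without the P70 mice numbered 5. Cacng5 differed by −0.13 in WT and −0.09 in KO and Cacng4 by −0.10 and −0.12 on the log2 scale, so no member of the TARP family outside the 9 genes had a positive estimate in either genotype. Cnih1 differed by −0.02 and −0.06 and Cnih4 by 0.0 and 0.12. Gsg1l, an auxiliary subunit that speeds desensitization, differed by 0.09 and 0.12 and Shisa8 by −0.30 and −0.17, with adjusted p from 0.27 to 0.568 for both genes and genotypes. In the genotype comparisons and the interaction 0 of the 41 genes were called. At P21 1 of the 41 had an unadjusted p under 0.05 by limma, against 2.44% of all genes, and none did at P70 or in the interaction. It was Grip1, a scaffold that binds Gria2 and Gria3, which was lower by 12.4% in P21 KO mice (adjusted p = 1.0 by limma).

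The genes whose pattern over the 20 mice was nearest to each pore subunit were found by the root mean square difference of log2 levels, each gene centred on its own mean, over 17637 genes. Nearest to Gria1 were Lrrc4, at 0.043, and Stau1, at 0.044. Nearest to Gria2 were Chl1, at 0.054, and Scn2a, at 0.059, nearest to Gria3 Sptbn1, at 0.043, and Syt1, at 0.045, and nearest to Gria4 Trim37, at 0.048, and Pcdhac2, at 0.053. Among the pore subunits, Gria3 and Gria4 differed by 0.098, Gria4 standing at rank 506 among the genes nearest to Gria3, and Gria1 and Gria2 by 0.311. The mice share their libraries across all genes, and the pattern of Gria2 is dominated by the 2 low values at P70. Each of the genes named as nearest was also below its P70 group mean in both mice numbered 5. Trim37 was 6990 in the WT and 6471 in the KO mouse, against means of 9178 and 9208. Stau1 was 1848 and 1697, against 1948 and 1883. The part of those 2 libraries in the likeness was not tested.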

How the data were processed

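Whole-brain RNA of 20 mice was measured by paired-end mRNA sequencing. The authors ran Salmon 1.1.0 on GRCm38 with its GC bias option, carried the estimates into R through tximport and deposited signal values per gene, which are read counts divided by DESeq2 size factors. The submitters' processing notes name DESeq2 1.26.0 and R 3.6.2. The design named a count test for raw counts and limma for normalized values. The low values were not multiples of whole reads, and the test was therefore limma (version 3.58.1, under R 4.3.3), its lmFit and trended eBayes steps applied to log2(value + 1), for genes with a mean of at least 10 over the mice of each fit, with Benjamini-Hochberg adjustment over all genes and a threshold of 0.05. Fold changes on this scale understate changes of low genes. The script was tested on simulated data. Symbols, lengths and sequences came from GENCODE M21, which matched 19447 of 19463 IDs, and levels per kb used the length of the principal transcript. Exact permutation tests were two-sided over 252 splits. Replicates are separate mice by the labels, and p values measure the spread between them. All members are named, with, per role, the 2 partner genes of smallest p with age in WT, partners called by genotype, and the 2 genes nearest each pore subunit; Grip1, Adarb1 and the marker genes named were chosen after their values were seen. The members and lists were chosen with earlier results of these data known. Alternatives covered scaling, trend, pseudocount, filter, length and GC content (mgcv 1.9.3), replicate block and each mouse left out. Alb, Serpina1a and Ckm of the 73 listed marker genes were not analysed here. Further cell type markers, with or without the P70 mice numbered 5, are not reported here.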

Additional observations from a re-analysis of the deposited data

Results flagged for a closer look

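In 15 of 72 groups of 5 mice, 36 of them groups of a member's normalized read counts and the rest groups of its shares and ratios, the highest or lowest mouse stood apart from the nearest other by more than 0.71 of the group's range. Chance alone marks about 1 in 20 groups, and shares of the same mouse are not independent of its levels. The share of all genes marked by this rule in the same mice was not measured. In the P70 mice numbered 5 the deviation of gene levels correlated with GC content across 17623 genes (r = 0.533 in KO, 0.474 in WT). Whether the member genes were marked more often than other genes was therefore not tested. Of the 15, 12 were the P70 mice numbered 5. In the P70 WT mouse 5 these were Gria1 at 10670.8, Gria4 at 3226.7 and Cacng2 at 3275.4 normalized read counts, and 47.12 units of TARP per 100 units of pore subunits. In the P70 KO mouse 5 they were Gria1 at 10382.4, Gria2 at 6962.7, Gria4 at 2905.0 and Cacng3 at 2327.8 normalized read counts. In the same mouse the Gria1 share of the pore subunits was 47.76%, the Gria2 share 16.68%, the TARP ratio 52.52 and the cornichon ratio 110.7 per 100 units of pore subunits. The other 3 were Cacng3 at 2160.9 normalized read counts in P21 KO mouse 4, a TARP ratio of 35.4 in P21 KO mouse 3 and a Cacng2 share of the 3 TARPs of 25.6% in P70 WT mouse 4.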

How the results depend on the processing

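Over all settings in which these comparisons were refitted, 0 of 9 genes and 0 of 41 partners were called between the genotypes or in the interaction. For age in WT, where no member was called, 2 were called with all mice in a single fit, 2 after the length and GC correction, 2 with that correction and the replicate block, 2 without both P70 mice numbered 5 and 1 with a mean of at least 100. For age in KO, where 2 were called, 1 was called after quantile normalization, 0 without the intensity trend and 0 with the replicate block. Of the partners, 8 in WT and 10 in KO were called after the length and GC correction, 8 in KO with the block added, and 8 and 10 without the P70 mice numbered 5. Leaving out each mouse in turn gave 0 to 2 members and 4 to 8 partners in WT and 0 to 3 members and 3 to 10 partners in KO, the highest counts each without P70 mouse 5. Rescaling, pseudocount 10, a mean of at least 1 and no filter left each of these counts within 1.5 times. Over all genes, calls with age went from 1643 in WT and 1467 in KO to 2909 and 3042 after the length and GC correction, to 2357 in KO with the block added, and to 3000 and 3759 without the P70 mice numbered 5, while leaving out P21 WT mouse 4 gave 912 in WT and leaving out P21 KO mouse 1, 2 or 4 gave 896 to 957 in KO. With exon union length the Gria2 share was 25.51% in P21 WT, 24.68% in P21 KO and 23.02% in P70 WT. The cause of these shifts was not tested.

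The replicate numbers were not taken to pair the mice, since the correlation of same-numbered mice was over 0.1 in 6 of 10 pairs and not in all. This does not show that same-numbered mice are unrelated. The correlation of same-numbered KO and WT mice over genes was 0.0313, -0.00913, 0.26, 0.147 and 0.0699 at P21 and 0.0749, 0.152, 0.17, 0.175 and 0.705 at P70. With the replicate block, 0 members were called in WT and 0 in KO, and for Cacng2 the adjusted p was 0.122 and 0.112. When the length and GC correction was added to the block, the adjusted p for Cacng2 was 0.0316 in WT and 0.0211 in KO by limma. Those fits called 1210 of 17616 genes higher in WT and 1276 of 17627 in KO. For Cacng3, the member farthest from 0 between the genotypes at P21, the log2 difference with the block was −0.11 (−0.20 to −0.02). By limma its unadjusted p was 0.0243 and its adjusted p 1.0, so it was not called. Cacng3 was lower in the KO mouse in 5 of 5 same-numbered pairs at P21. With the length and GC correction added to the block, its log2 difference was −0.13 (unadjusted p = 0.0081, adjusted p = 0.999 by limma). Over all genes the block took the calls in KO from 1467 to 913. Of the 20 mice, 12 correlated best with the mouse of their own number, out of the 5 mice of the same age in the other genotype. The labels give same-numbered mice only the number in common, and what else they share is not known. The calls lost under the block are thus a limit of the age results, and why they were lost was not tested.

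Signs turned for 28 estimates, none of them called in either fit, in log2 units. After quantile normalization Cnih2 with age in KO was -0.019, and the interaction was -0.00016 for Gria1 and 0.003 for Cnih3. After the length and GC correction, with and without the replicate block, age in KO was 0.024 for Gria3 and -0.103 for Cnih2, KO against WT at P70 was 0.017 for Gria1, 0.022 for Gria3 and 0.02 for Gria4, and the interaction was 0.002 for Cnih3. Without both P70 mice numbered 5, age in WT was 0.009 for Gria2, 0.008 for Gria3 and 0.042 for Gria4. In the same fit age in KO was 0.059 for Gria2, 0.025 for Gria3, 0.044 for Gria4, -0.026 for Cacng3, -0.09 for Cnih2 and -0.003 for Cnih3. There KO against WT at P70 was 0.019 for Gria4, and the interaction was 0.05 for Gria2, 0.002 for Gria4 and 0.005 for Cacng8.

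Leaving out each mouse in turn also turned signs, and the ranges were as follows. For age in WT they were -0.197 to 0.009 for Gria2, -0.104 to 0.008 for Gria3, -0.103 to 0.042 for Gria4, -0.053 to 0.007 for Cacng3 and -0.161 to 0.029 for Cnih2. For age in KO they were -0.279 to 0.059 for Gria2, -0.097 to 0.025 for Gria3, -0.142 to 0.044 for Gria4, -0.026 to 0.057 for Cacng3, -0.09 to 0.048 for Cnih2 and -0.003 to 0.062 for Cnih3. For KO against WT at P21 they were -0.036 to 0.005 for Gria1, -0.127 to 0.017 for Gria2, -0.045 to 0.02 for Gria3, -0.008 to 0.053 for Gria4, -0.021 to 0.071 for Cacng8, -0.046 to 0.051 for Cnih2 and -0.023 to 0.023 for Cnih3. At P70 they were -0.039 to 0.028 for Gria1, -0.265 to 0.125 for Gria2, -0.082 to 0.065 for Gria3, -0.119 to 0.123 for Gria4, -0.011 to 0.041 for Cacng8, -0.047 to 0.163 for Cnih2 and -0.049 to 0.015 for Cnih3. For the interaction they were -0.027 to 0.04 for Gria1, -0.192 to 0.199 for Gria2, -0.062 to 0.085 for Gria3, -0.136 to 0.106 for Gria4, -0.018 to 0.041 for Cacng2, -0.005 to 0.079 for Cacng3, -0.056 to 0.036 for Cacng8, -0.045 to 0.165 for Cnih2 and -0.047 to 0.017 for Cnih3.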
